A study of Homo sapiens with 8 samples.

Results

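Expressed LINC long noncoding RNAs were followed in BEAS-2B cells, an immortalised human lung epithelial line, before, during and after exposure to nickel. The files listed 628 rows whose symbol starts with LINC among 25411 genes. A row was taken as a member when its mean RPKM (reads scaled to the length of a transcript and the depth of its library) over the 2 libraries of a group was at least 0.3 in at least 1 of the 4 groups, which left 86 members. The members were therefore chosen on their levels in these libraries, and levels are described here without a test. Untreated cells (UT) had no nickel. Nickel-exposed cells (Ni-E) were kept in 100 µM NiCl2 for 6 weeks. Washed-out cells (Ni-W) went through the same exposure and were then grown without nickel for more than 6 months. Ni-W was 1 randomly picked population grown from a single colony, so what nickel and wash-out did cannot be told apart from what selection of that clone did. The treatment text of HCl3 repeated that of Ni-W, but no time without nickel was given for it. The labels number Ni-E as experiment 2, HCl3 replicates 1 and 2 as experiments 3 and 4, and UT and Ni-W not at all, so experiment and group cannot be told apart.

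LINC symbols are given to long intergenic noncoding RNAs, transcripts that lie between protein-coding genes and were placed in the noncoding class because no long reading frame was seen in them. They are transcribed, capped and spliced much like messenger RNAs, are mostly present at low levels, and often differ between cell types. Some bind proteins or microRNAs, some act on chromatin near the site where they are made, and some were later found to code for proteins. RefSeq now annotates 6 of the 86 members as protein coding: LINC00493 (SMIM26), LINC00998 (SMIM30), LINC00116 (MTLN), LINC00094 (BRD3OS), LINC01279 (CCDC80) and LINC00341 (SYNE3). The counts of members below include these 6. In cancers, several of them have been linked to growth, invasion and the epithelial-mesenchymal transition, a change in cell state that the study of nickel-treated lung cells also addressed.

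Total reads ranged from 26383920 to 45692298 per library. The epithelial keratins KRT8 (192 to 310.3 RPKM) and KRT18 (144 to 245 RPKM) were abundant in all 8 libraries, whereas the epithelial adhesion gene CDH1 stayed between 0.01 and 0.11 RPKM. The summed epithelial markers (5 genes) were 338 to 369 RPKM (UT), 372 to 435 (Ni-E), 466 to 494 (Ni-W) and 522 to 558 (HCl3). The fibroblast list (3 genes) summed to between 178 and 456 RPKM, nearly all of it COL1A1, with DCN at 0. The endothelial list (3 genes) did not pass 0.11 RPKM in sum. The immune list (3 genes) summed to between 14.4 and 21.8 RPKM, nearly all from CD68, with CD3E at 0 and PTPRC at most 0.04. The part that these marker levels have in the results was not tested. In bulk RNA, fewer cells that express a gene and less of its RNA per cell cannot be told apart.

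The promoters of 7 members are shown because results below turn on these members. NORAD (LINC00657) is the most read member, LINC00493 and LINC00998 fell after wash-out, LINC00473, LINC01116 and LINC00669 rose, and LINC00882 begins beside another member. Each run is 300 bases, from 250 bases before the RefSeq start to 50 after it, 5′ to 3′ on the strand of the gene in GRCh38.p14. Capitals mark motifs found on either strand, namely ACGTG with its variant GCGTG, both cores of hypoxia-response elements, CACCTG, the E-box bound by ZEB repressors, TGANTCA, bound by AP-1, and TATAAA, the TATA box. The palindrome CACGTG is read as the first of these cores on both strands.
LINC00657 (NORAD), chr20:36050911-36051210, minus strand: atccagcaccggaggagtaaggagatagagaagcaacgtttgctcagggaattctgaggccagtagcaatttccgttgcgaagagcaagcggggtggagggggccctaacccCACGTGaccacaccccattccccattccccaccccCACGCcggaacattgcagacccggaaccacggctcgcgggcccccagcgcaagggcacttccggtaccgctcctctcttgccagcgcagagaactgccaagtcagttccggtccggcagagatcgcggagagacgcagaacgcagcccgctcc
LINC00493 (SMIM26), chr20:18567182-18567481, plus strand: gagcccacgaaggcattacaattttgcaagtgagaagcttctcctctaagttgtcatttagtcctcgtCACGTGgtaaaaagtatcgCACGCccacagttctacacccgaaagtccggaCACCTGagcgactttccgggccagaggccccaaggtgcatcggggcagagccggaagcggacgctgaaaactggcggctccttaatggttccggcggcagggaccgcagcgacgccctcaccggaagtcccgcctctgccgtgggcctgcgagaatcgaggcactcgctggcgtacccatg
LINC00998 (SMIM30), chr7:113118505-113118804, minus strand: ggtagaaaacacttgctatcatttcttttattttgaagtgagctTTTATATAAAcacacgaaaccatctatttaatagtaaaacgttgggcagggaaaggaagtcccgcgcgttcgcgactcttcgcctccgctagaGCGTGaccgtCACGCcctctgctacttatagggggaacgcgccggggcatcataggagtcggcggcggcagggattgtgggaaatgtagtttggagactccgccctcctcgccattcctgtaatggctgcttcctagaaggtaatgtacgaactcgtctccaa
LINC00473, chr6:165987990-165988289, minus strand: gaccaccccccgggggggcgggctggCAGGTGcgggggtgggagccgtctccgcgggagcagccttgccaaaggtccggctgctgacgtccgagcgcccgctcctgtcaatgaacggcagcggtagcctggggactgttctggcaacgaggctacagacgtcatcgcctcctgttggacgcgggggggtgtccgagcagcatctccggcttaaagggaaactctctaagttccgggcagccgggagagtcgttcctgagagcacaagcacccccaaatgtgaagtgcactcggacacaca
LINC01116, chr2:176637560-176637859, minus strand: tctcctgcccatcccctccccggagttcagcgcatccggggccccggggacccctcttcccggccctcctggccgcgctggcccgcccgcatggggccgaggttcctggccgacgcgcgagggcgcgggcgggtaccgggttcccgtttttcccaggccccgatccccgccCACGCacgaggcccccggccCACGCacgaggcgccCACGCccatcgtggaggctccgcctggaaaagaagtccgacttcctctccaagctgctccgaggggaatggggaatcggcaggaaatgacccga
LINC00669 (MIR924HG), chr18:39751946-39752245, minus strand: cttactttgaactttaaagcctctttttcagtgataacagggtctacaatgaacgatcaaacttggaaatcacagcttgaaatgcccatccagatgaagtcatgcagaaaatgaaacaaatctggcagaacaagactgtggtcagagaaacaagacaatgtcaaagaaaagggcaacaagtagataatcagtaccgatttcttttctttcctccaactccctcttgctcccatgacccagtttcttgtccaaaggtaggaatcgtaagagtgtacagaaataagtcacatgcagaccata
LINC00882, chr3:107240589-107240888, minus strand: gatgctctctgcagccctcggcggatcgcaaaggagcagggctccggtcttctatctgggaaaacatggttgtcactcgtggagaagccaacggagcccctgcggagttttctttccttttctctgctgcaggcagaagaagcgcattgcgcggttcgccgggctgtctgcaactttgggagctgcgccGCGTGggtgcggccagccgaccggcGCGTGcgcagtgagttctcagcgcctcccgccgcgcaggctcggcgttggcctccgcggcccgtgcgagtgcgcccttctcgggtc

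The LINC00657 and LINC00493 promoters each held a CACGTG and 1 GCGTG core, and that of LINC01116 held 3 GCGTG cores. The LINC00998 promoter held overlapping TATAAA matches on both strands, far upstream of the start. The LINC00669 promoter held none of the motifs searched, and its GC content was 40.0%, against 72.7% for LINC01116. A promoter sequence was at hand for 71 of the 86 members. For LINC01279 and LINC00341, counted among the 71, it is the promoter of CCDC80 and of SYNE3. In hg19 these genes start 39174 and 65746 bp from the starts of the LINC rows. Of the 71, 23.9% held ACGTG and 33.8% GCGTG, while 21.6% and 36.3% of the 27305 RefSeq promoters of the same length did. CACCTG was in 21.1% of member promoters and 20.6% of all, TGANTCA in 14.1% and 7.76%, and TATAAA in 11.3% and 12.0%. Median GC content was 58.0% in members and 58.3% in all promoters. These matches describe letters in a window and not bound sites. None of the differences was tested.

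Most members were scarce, and a few took most of the reads. Members together made up 0.0731 and 0.0681% of the reads of the UT libraries, and for Ni-E 0.0646 and 0.0660%, for Ni-W 0.0812 and 0.0792%, for HCl3 0.0787 and 0.0756%. LINC00657 alone accounted for between 23.3 and 27.8% of the member reads of the UT and Ni-E libraries and between 32.1 and 35.6% of those of Ni-W and HCl3. Although every Ni-W and HCl3 library lay above every UT and Ni-E library, this did not hold once LINC00657 was left out, when the members made up 0.0560 and 0.0492% (UT), 0.0477 and 0.0497% (Ni-E), 0.0542 and 0.0511% (Ni-W) and 0.0517 and 0.0513% (HCl3). The median member had a mean of 0.823 RPKM over the 8 libraries, 45 members reached 1 RPKM in a group and 6 reached 10 RPKM. Of the remaining LINC rows, 542 stayed below the level in every group, 328 rows having no read at all. Just inside the level were LINC00260 (0.305 RPKM in Ni-W) and LINC00852 (0.320 in UT). Just outside were LINC00115 (0.295 in UT) and LINC00565 (0.290 in HCl3).

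**Figure D1:**
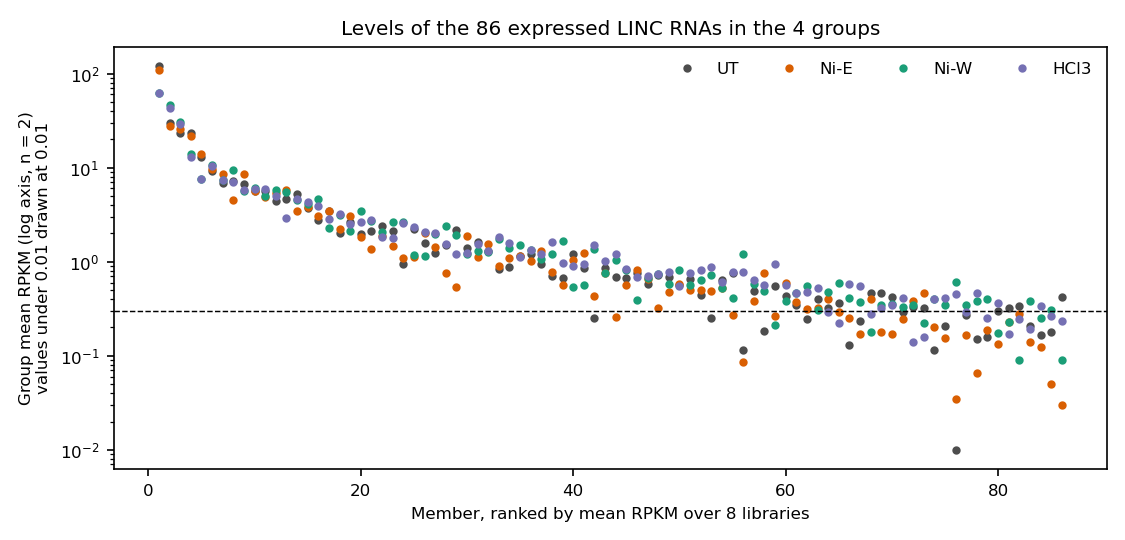
Mean RPKM of the 86 members in UT, Ni-E, Ni-W and HCl3 (colours, n = 2 libraries each, log axis), with members ranked by their mean over the 8 libraries. The dashed line is the 0.3 RPKM level of the membership rule. The leading member lies above 60 RPKM in every group, while most members lie near or under 1 RPKM.

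The level was reached in all 4 groups by 55 members and in only some of them by 31. In UT, 69 members were at the level. For Ni-E the number was 63, for Ni-W 78 and for HCl3 74. The level was reached in Ni-W or HCl3 but in neither UT nor Ni-E by 13 members, and the opposite held for 5. The highest of the 4 group means was that of HCl3 for 30 members, Ni-W for 27, Ni-E for 15 and UT for 14. Since the rule admitted members through whichever group was high, these counts describe the list and support no difference between groups. All 4 libraries of Ni-W and HCl3 lay above all 4 of UT and Ni-E for 21 members (24.4%) and below them for 5 (5.81%). Among the 13708 genes that reached the same level in a group, this held for 19.6% and 17.2%.

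Each pair of groups was compared with DESeq2 on the deposited counts of all genes. A gene was called at an adjusted P value (Benjamini-Hochberg over all genes tested) under 0.05 with at least a 1.5-fold change. Where a call is said to be lost, the highest adjusted P over all alternatives run is given. A call in the direction of the group that admitted a member was favoured by the rule, so counts are given beside those over all LINC rows and all genes. In Ni-E against UT, 0 of 84 members tested were higher and 7 were lower, where 3.75% of all genes were called higher and 2.05% lower. No member was higher by DESeq2, 1 was by edgeR, and 13 members passed an unadjusted P of 0.05 in either direction. Over all 124 LINC rows tested, 0 were higher and 8 lower. Ni-W against UT gave 11 members higher and 6 lower of 86 (all genes 10.9% and 4.83%; all 170 LINC rows, 14 and 6). HCl3 against UT gave 11 higher and 5 lower of 86 (all genes 11.1% and 3.74%; all 169 LINC rows, 12 and 5). These 3 comparisons share the UT libraries.

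More members, and more genes of any kind, were called in the comparisons that involve washed-out cells and UT or Ni-E. Ni-W against Ni-E gave 16 higher and 5 lower of 86 (all genes 11.7% and 8.81%; all 177 LINC rows, 20 and 6). HCl3 against Ni-W gave 2 higher and 2 lower of 84 (all genes 3.1% and 1.66%; all 140 LINC rows, 3 and 2). The share of members called higher was thus 12.8% in both Ni-W and HCl3 against UT, close to that of all genes, and 18.6% in Ni-W against Ni-E. Among the 55 members at the level in every group, 5 were higher and 5 lower in Ni-W against UT, 4 and 5 in HCl3 against UT, and 11 and 5 in Ni-W against Ni-E. The median log2 fold change over members was -0.19 in Ni-E against UT, 0.19 in Ni-W against UT, 0.14 in HCl3 against UT and 0.38 in Ni-W against Ni-E, while that over all genes tested stayed within 0.02 of 0. For the 55 members at the level in every group, which did not enter through 1 group alone, the medians were nearer 0. They were -0.04, 0.06, 0.08 and 0.19 in the same order. Over all LINC rows tested, which passed no rule on level, the medians were -0.06, 0.28, 0.31 and 0.47. In all, 30 members were called in at least 1 comparison and 56 in none. The share of all genes called in at least 1 comparison was not counted, so nothing is read from these 2 numbers. The 5 members lower in HCl3 against UT were LINC00493, LINC00998, LINC00958, LINC01085 and LINC00960, and the 5 lower in Ni-W against Ni-E were LINC00493, LINC00998, LINC00958, LINC00116 and LINC00938. The smallest of these changes was that of LINC00938 (-0.59 ± 0.23, adjusted P = 0.0304), which was lost without any 1 of the 4 libraries (adjusted P up to 0.391). In HCl3 against Ni-W, LINC00707 and LINC00619 were higher and LINC00960 and LINC01270 lower.

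**Figure D2:**
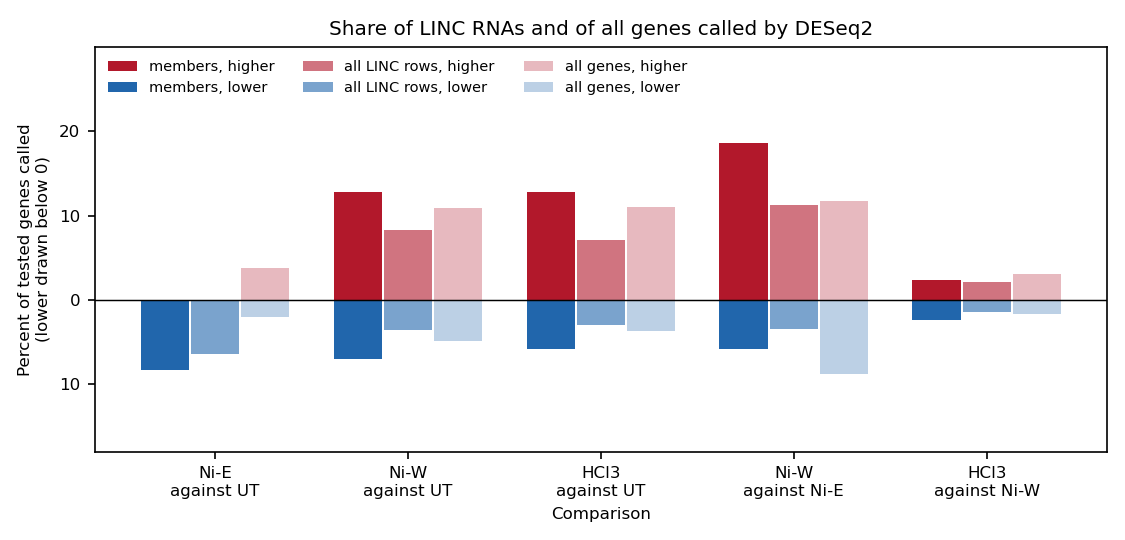
Percent of tested members, of all tested LINC rows and of all tested genes called higher (red, above 0) or lower (blue, below 0) in each comparison, n = 2 libraries per group. In Ni-E against UT no member is called higher and 8.33% are called lower. In the other comparisons members are called in both directions.

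**Figure D3:**
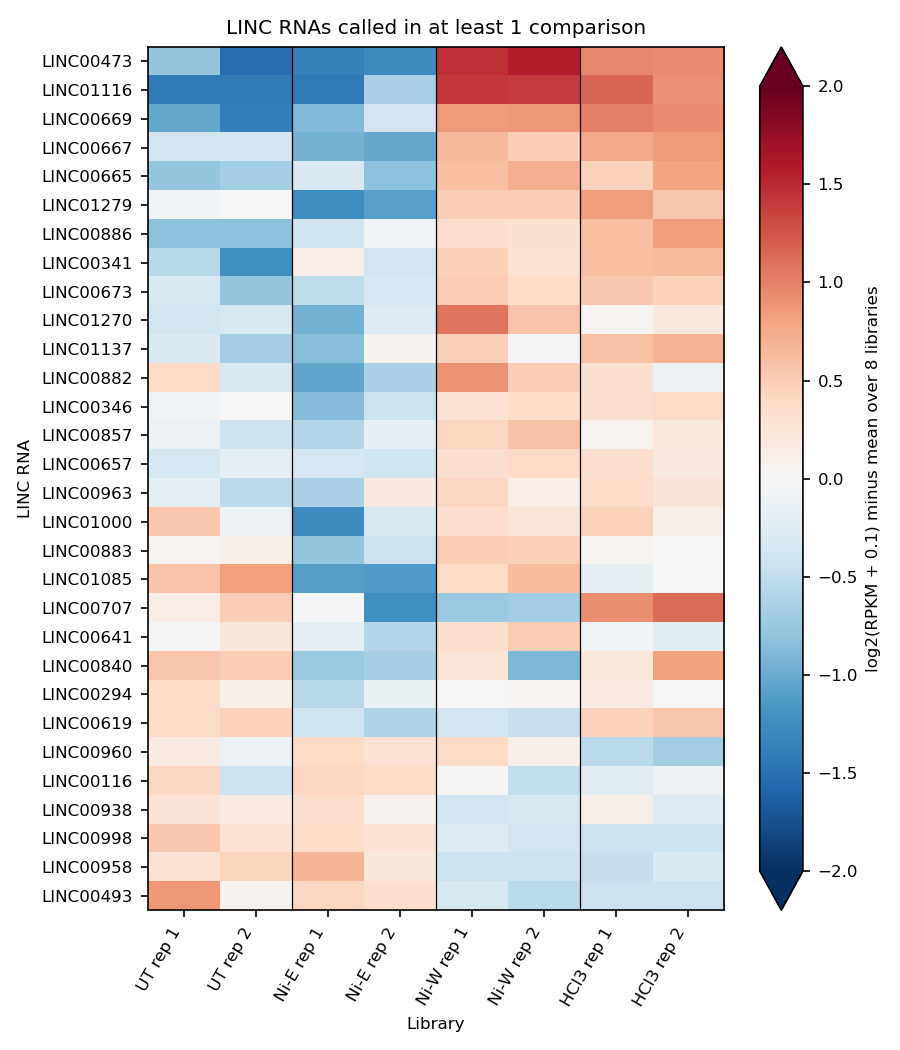
Rows are the 30 LINC RNAs called in at least 1 comparison and columns the 8 libraries. Colour is log2(RPKM + 0.1) minus its mean over the libraries. Rows are sorted by the difference between the libraries of Ni-W and HCl3 and those of UT and Ni-E, so the top rows are red and the bottom rows blue on the right.

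Of the 4 members on the fixed list of LINC symbols with reported micropeptides, which held 11 symbols, 2 were called lower in both washed-out groups. In Ni-W against UT and in HCl3 against UT, 0 of these 4 rose and 2 fell (4.83% and 3.74% of all genes were called lower), with a list median log2 fold change of -0.54 and -0.59. LINC00493, now named SMIM26, encodes a small mitochondrial protein and had the highest RPKM of all members. Its levels were 152 and 87.5 RPKM (UT), 111 and 105 (Ni-E), 66.5 and 57.0 (Ni-W) and 61.9 and 62.3 (HCl3). All 4 libraries of Ni-W and HCl3 lay below the other 4, although the UT libraries stood apart from each other. The log2 fold change was -0.99 ± 0.40 (SE) in Ni-W against UT (adjusted P = 0.0431), a decrease by 1.00 ± 0.38 in HCl3 against UT (adjusted P = 0.0325) and -0.80 ± 0.12 in Ni-W against Ni-E (adjusted P = 1.95e-09). The 27 genes within 5 Mb of LINC00493 also leaned lower after wash-out. Their median on the log2 scale was -0.51 for Ni-W and -0.38 for HCl3 against UT, and -0.49 for Ni-W against Ni-E. For Ni-E against UT it was -0.03 (26 genes). How much of this regional shift enters the fall of LINC00493 was not tested. Both calls against UT were lost without UT replicate 1 and without either washed-out replicate (highest adjusted P 0.453 for Ni-W and 0.417 for HCl3), whereas the call against Ni-E held in every alternative.

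LINC00998, now SMIM30, encodes a membrane protein of the endoplasmic reticulum. It had 25.2 and 21.2 RPKM (UT), 22.3 and 21.2 (Ni-E), 14.4 and 13.3 (Ni-W) and 12.9 and 12.9 (HCl3). Its washed-out libraries did not overlap the others. It fell in log2 terms by 0.77 ± 0.16 in Ni-W against UT (adjusted P = 1.03e-05), by 0.91 ± 0.15 in HCl3 against UT (adjusted P = 2.49e-08) and by 0.64 ± 0.15 in Ni-W against Ni-E (adjusted P = 9.03e-05). All 3 calls held in every alternative run. LINC00116, which encodes mitoregulin (MTLN) of the inner mitochondrial membrane, had 8.61 and 4.80 RPKM (UT), 8.67 and 8.40 (Ni-E), 6.60 and 4.56 (Ni-W) and 5.58 and 5.97 (HCl3). It passed the test only in Ni-W against Ni-E, at -0.60 ± 0.20 (adjusted P = 0.00911), a call lost without Ni-W replicate 2 or without either Ni-E replicate (adjusted P up to 0.359). LINC00467, the source of a peptide that binds ATP synthase, was not called. It had 3.33 and 2.19 RPKM (UT), 2.80 and 3.28 (Ni-E), 5.51 and 3.83 (Ni-W) and 3.71 and 4.11 (HCl3). Its washed-out libraries all lay above the others.

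Short members differed between the replicates of UT and of Ni-W. Length was read from the ratio of counts to RPKM, and only members with at least 10 reads in every library were used. For the 4 such members with an implied length under 1000 bp, the level in UT replicate 1 over that in replicate 2 had a median ratio of 1.59, and in Ni-W 1.34, with all 4 higher in replicate 1. For the 59 longer members the median ratios were 1.00 and 1.02. LINC00493 is one of the 4, and the part of this in its values was not tested.

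Of the 3 members tied to p53 and genome stability, 1 was called, in 1 comparison. LINC00657, known as NORAD, is a cytoplasmic RNA that binds PUMILIO proteins and is needed for stable chromosome numbers. It had 28.2 and 31.7 RPKM (UT), 28.3 and 27.0 (Ni-E), 44.8 and 47.2 (Ni-W) and 45.0 and 40.5 (HCl3), with no overlap between the washed-out and the other libraries. Its log2 difference was 0.74 ± 0.09 in Ni-W against Ni-E (adjusted P = 7.83e-14). Against UT it was 0.58 ± 0.11 in Ni-W (adjusted P = 7.15e-07) and 0.46 ± 0.10 in HCl3 (adjusted P = 6.20e-05), both short of the 1.5-fold threshold. The call against Ni-E was lost under the correction for GC content and length (adjusted P up to 0.00357, below 1.5-fold). Genes within 5 Mb of LINC00657 leaned higher after wash-out too. On the log2 scale their median was 0.28 for both Ni-W and HCl3 against UT (80 genes). It was 0.22 for Ni-W against Ni-E (81 genes) and 0.07 for Ni-E against UT (77 genes). How much of this regional shift enters the rise of LINC00657 was not tested. LINC-PINT, a p53 target that acts with Polycomb proteins, ranged from 0.90 to 1.39 RPKM, and LINC-ROR, which restrains p53, from 0.35 to 0.89. Neither was called in any comparison.

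Of a fixed list of 17 LINC symbols linked to cancer and the epithelial-mesenchymal transition, 11 were members. Of these, 5 rose and 2 fell in Ni-W against UT, 4 rose and 1 fell in HCl3 against UT, and none of 10 tested was called in Ni-E against UT. Over all genes, 10.9% rose and 4.83% fell in Ni-W, 11.1% and 3.74% in HCl3, and 3.75% and 2.05% in Ni-E. The 11 were admitted on their level in some group, and nothing is read from their counts. LINC00473, a transcript induced by cAMP signalling through CREB, had 0.17 and 0.06 RPKM (UT), 0.08 and 0.09 (Ni-E), 1.16 and 1.26 (Ni-W) and 0.79 and 0.78 (HCl3). The UT and Ni-E libraries held 11, 2, 3 and 3 reads, and the washed-out libraries at least 47. Its log2 fold change was 3.30 ± 0.66 in Ni-W against UT (adjusted P = 7.84e-06), 4.50 ± 0.78 in Ni-W against Ni-E (adjusted P = 1.01e-07) and 2.70 ± 0.73 in HCl3 against UT (adjusted P = 0.00140). The calls in Ni-W held in every alternative, while that in HCl3 was lost without either HCl3 replicate (adjusted P up to 0.186).

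LINC01116 lies on chromosome 2 (hg19, chr2:177494309-177502302, minus strand), 291556 bp from its nearest coding gene in the files, MTX2. No read was counted in either UT library, and Ni-E had 0 and 3 reads. Ni-W had 33 and 22 reads and HCl3 22 and 18, or 0.61, 0.60, 0.50 and 0.40 RPKM. Taking 3 reads over the UT group as the floor, it was at least 15.2-fold higher in Ni-W (adjusted P = 0.000331) and at least 11.3-fold higher in HCl3 (adjusted P = 0.00134). Against Ni-E the ratio for Ni-W was 16.4, with an exact counting interval of 5.32 to 81.8. The call in Ni-W against UT held in every alternative run. That in HCl3 was lost without either HCl3 replicate, and that against Ni-E without either Ni-W replicate or without Ni-E replicate 1 (adjusted P up to 0.197 and 0.152).

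A further set on this list was higher in both washed-out groups or in Ni-W. LINC00673 had 0.99 and 0.68 RPKM (UT), 0.85 and 0.97 (Ni-E), 1.82 and 1.67 (Ni-W) and 1.86 and 1.76 (HCl3). Its log2 fold change was 1.01 ± 0.33 in Ni-W (adjusted P = 0.00995) and 1.05 ± 0.32 in HCl3 (adjusted P = 0.00506) against UT. LINC00963 rose by less, at 0.61 ± 0.25 and 0.63 ± 0.24 (adjusted P = 0.0481 and 0.0302). Each of these 4 calls was lost in turn without at least 3 of the 4 libraries concerned, UT replicate 2 and either washed-out replicate included (adjusted P up to 0.316 and 0.580). Both calls of LINC00963 were also lost under the correction for GC content and length. LINC00857 had 2.20 and 1.76 RPKM in UT and 3.24 and 3.64 in Ni-W (a log2 difference of 0.76 ± 0.24, adjusted P = 0.00775), and it was not called in HCl3 (0.35 ± 0.25). Its call was lost without UT replicate 2 or either Ni-W replicate, and under the correction for GC content and length (adjusted P up to 0.286). LINC00152 (CYTOR), which was among the most abundant members at 18.7 to 34.8 RPKM, was not called in any comparison, and its level is uncertain because a near-identical copy exists and reads with several alignments were removed. Nor was any call made for LINC00941, LINC00662 or LINC00472.

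LINC00958 fell. It had 12.2 and 13.8 RPKM (UT), 16.1 and 11.7 (Ni-E), 7.45 and 7.51 (Ni-W) and 7.15 and 8.10 (HCl3). No washed-out library reached the lowest of the other 4. Its log2 fold change was -0.83 ± 0.16 in Ni-W against UT (adjusted P = 3.21e-06), -0.82 ± 0.16 in HCl3 against UT (adjusted P = 2.20e-06) and -0.89 ± 0.18 in Ni-W against Ni-E (adjusted P = 7.20e-06), and all 3 calls held in every alternative. LINC00707 separated the washed-out groups from each other. It had 0.47 and 0.63 RPKM (UT), 0.41 and 0.12 (Ni-E), 0.21 and 0.22 (Ni-W) and 0.89 and 1.02 (HCl3). It was 2.16 ± 0.38 higher on the log2 scale in HCl3 than in Ni-W (adjusted P = 7.07e-07), in every alternative run. In Ni-W against UT it fell by 1.41 ± 0.49 (adjusted P = 0.0173), a call lost without any 1 of the 4 libraries (adjusted P up to 0.284).

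**Figure D4:**
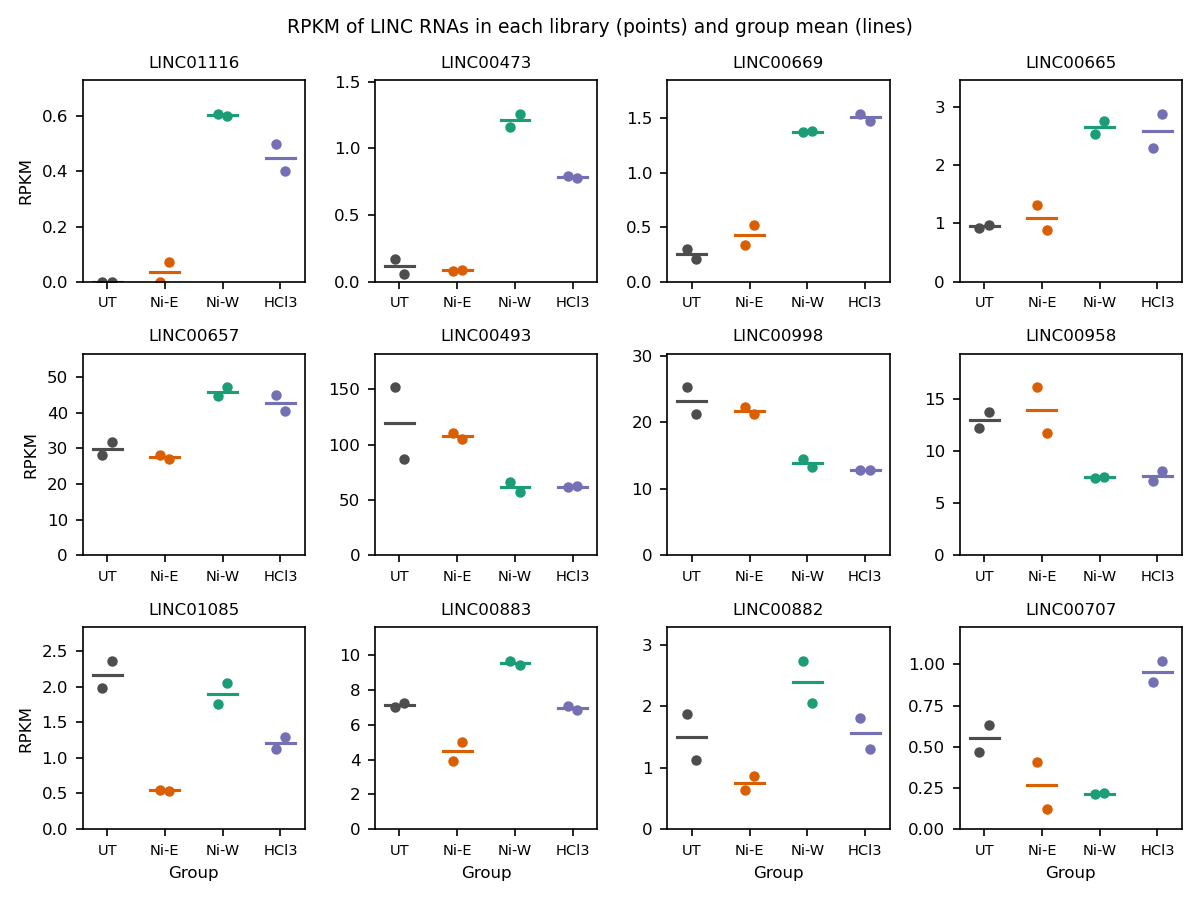
RPKM of 12 members in each library (points) with the mean of each group (lines, n = 2), each panel on its own linear axis from 0. LINC01116, LINC00473, LINC00669, LINC00665 and LINC00657 are higher in Ni-W and HCl3, LINC00493, LINC00998 and LINC00958 are lower there, LINC01085, LINC00883 and LINC00882 are lowest in Ni-E, and LINC00707 is highest in HCl3.

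Beyond the fixed lists, 5 further members were called higher against UT in both washed-out groups, so that 9 members rose and 3 fell in both. Both comparisons use the same UT libraries, and the membership rule favoured calls toward the group that admitted a member. How many genes of any kind moved the same way in both was not counted. The 9 and 3 are therefore not read as particular to members. LINC00669, now MIR924HG, spans chr18:36786888-37331959 (hg19, minus strand) and contains the hairpins of MIR924 and MIR5583-2 on its own strand and that of MIR5583-1 on the opposite strand. It had 0.30 and 0.21 RPKM (UT), 0.34 and 0.52 (Ni-E), 1.37 and 1.38 (Ni-W) and 1.54 and 1.47 (HCl3). Its log2 fold change against UT was 2.40 ± 0.44 in Ni-W (adjusted P = 8.32e-07) and 2.50 ± 0.42 in HCl3 (adjusted P = 5.20e-08), and both calls held in every alternative. The overlapping MIR5583-1 and MIR5583-2 rows were at 0 RPKM in every group. The libraries were not made for small RNAs, and reads with several alignments were removed. These values therefore do not show that the microRNAs were absent. LINC00665 had 0.92 and 0.98 RPKM (UT), 1.31 and 0.88 (Ni-E), 2.54 and 2.77 (Ni-W) and 2.30 and 2.89 (HCl3). It rose by 1.58 ± 0.35 and 1.54 ± 0.35 (adjusted P = 8.17e-05 and 0.000102), the first call being lost without either Ni-W replicate and the second without HCl3 replicate 2 (adjusted P up to 0.0744 and 0.144).

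LINC00886, LINC00341 (in RefSeq now a synonym of SYNE3, a coding gene) and LINC00667 were scarce in UT, with 0.13 and 0.13, 0.33 and 0.17, and 0.15 and 0.15 RPKM. In Ni-W, LINC00886 had 0.42 and 0.40 RPKM, LINC00341 0.78 and 0.67, and LINC00667 0.41 and 0.36. In HCl3, they had 0.52 and 0.63, 0.86 and 0.88, and 0.45 and 0.49 RPKM. None of the 3 had a washed-out library that overlapped UT. The log2 fold changes against UT lay between 1.35 ± 0.52 (LINC00667 in Ni-W, adjusted P = 0.0326) and 2.06 ± 0.50 (LINC00886 in HCl3, adjusted P = 0.000318). Of the 6 calls against UT, both of LINC00667 and that of LINC00886 in Ni-W were lost with the replicate number as a block. That of LINC00667 in Ni-W was also lost under the correction for GC content and length. Each of these 6 calls was lost without at least 2 of the libraries in turn, 1 or both of the washed-out replicates included (adjusted P up to 0.450).

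During exposure itself, the called members fell. LINC01085 had 1.98 and 2.36 RPKM (UT), 0.55 and 0.54 (Ni-E), 1.75 and 2.05 (Ni-W) and 1.13 and 1.29 (HCl3). Both Ni-E libraries lay below all others. It fell by 2.05 ± 0.36 on the log2 scale in Ni-E against UT (adjusted P = 8.90e-07) and was 1.81 ± 0.36 higher in Ni-W than in Ni-E (adjusted P = 4.17e-06), both in every alternative. HCl3 also lay below UT, at -0.90 ± 0.29 (adjusted P = 0.00919), a call lost without any 1 of the 4 libraries (adjusted P up to 0.306). LINC01279, which RefSeq now gives as a synonym of CCDC80, had 0.68 and 0.71 RPKM (UT), 0.24 and 0.28 (Ni-E), 1.04 and 1.04 (Ni-W) and 1.34 and 1.09 (HCl3). It fell by 1.48 ± 0.36 in Ni-E (adjusted P = 0.000999), and was 2.01 ± 0.31 higher in Ni-W than in Ni-E (adjusted P = 1.47e-09). LINC01279 was also called higher in HCl3 against UT. That call was lost without any 1 of the 4 libraries, with the replicate number as a block, and under the correction for GC content and length. The fall in Ni-E was lost without any 1 of the 4 libraries (adjusted P up to 0.158), while the difference between Ni-W and Ni-E held in every alternative.

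The other members lower in Ni-E against UT were LINC00840 (-1.55 ± 0.55), LINC01000 (-1.22 ± 0.36), LINC00883 (-0.73 ± 0.17), LINC00346 (-0.69 ± 0.21) and LINC00294 (-0.66 ± 0.20), on the log2 scale. LINC00346 and LINC00294 are named only because the count is small, after their values were seen. Each of these 5 calls was lost without Ni-E replicate 1, and each also without at least 1 UT replicate (adjusted P up to 0.510). Without Ni-E replicate 1 only LINC01085 remained called, 5 calls remained without Ni-E replicate 2, and 2 without UT replicate 1 or UT replicate 2. In Ni-W against Ni-E, LINC00883 (1.10 ± 0.15, adjusted P = 3.74e-12), LINC00346 (1.02 ± 0.18, adjusted P = 3.48e-07) and LINC01000 (1.21 ± 0.32, adjusted P = 0.000645) were higher. The first 2 of these held in every alternative. These comparisons share the Ni-E libraries with those against UT.

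The total of member calls also depended on single libraries in the comparisons with washed-out cells. How far the totals over all genes moved was not counted, so the drops are not read as particular to members. Ni-W against UT gave 6 without either Ni-W replicate and 9 without either UT replicate, in place of 17. HCl3 against UT gave 4 without HCl3 replicate 1, 3 without HCl3 replicate 2, 9 without UT replicate 1 and 12 without UT replicate 2, in place of 16. Ni-W against Ni-E gave 10 and 12 without Ni-W replicate 1 and 2, in place of 21. HCl3 against Ni-W gave 1 or 2, in place of 4.

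Some members lie side by side. LINC00882 and LINC00883 (DUBR) start 54 bp apart on opposite strands of chromosome 3 and point away from each other. LINC00883 (chr3:106959539-107045811, hg19) had 7.03 and 7.26 RPKM (UT), 3.94 and 5.01 (Ni-E), 9.67 and 9.42 (Ni-W) and 7.07 and 6.84 (HCl3). LINC00882 had 1.88 and 1.13 RPKM (UT), 0.64 and 0.87 (Ni-E), 2.74 and 2.05 (Ni-W) and 1.81 and 1.31 (HCl3). In both, the Ni-E libraries were the lowest and the Ni-W libraries the highest. The log2 difference between Ni-W and Ni-E was 1.67 ± 0.57 for LINC00882 (adjusted P = 0.0103), a call lost without any 1 of the 4 libraries (adjusted P up to 0.356). LINC00882 is named for its position, after its values were seen. Whether reads were counted by strand was not stated, so reads near a shared start or in an overlap cannot be assigned with certainty.

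LINC00619 and LINC00840 lie on the same strand of chromosome 10, with 8789 bp between them. LINC00619 had 2.13 and 2.27 RPKM (UT), 1.20 and 1.03 (Ni-E), 1.21 and 1.15 (Ni-W) and 2.27 and 2.41 (HCl3). LINC00840 had 0.78 and 0.74 RPKM (UT), 0.26 and 0.28 (Ni-E), 0.61 and 0.22 (Ni-W) and 0.59 and 0.95 (HCl3). For LINC00619 both Ni-E and both Ni-W libraries lay below those of UT and HCl3, while for LINC00840 the Ni-E libraries lay below those of UT and HCl3 and the Ni-W libraries stood apart from each other. LINC01270 and LINC01271 overlap by 4209 bp on opposite strands of chromosome 20. LINC01270 had 0.66 and 0.69 RPKM (UT), 0.41 and 0.72 (Ni-E), 1.95 and 1.35 (Ni-W) and 0.92 and 1.02 (HCl3), and rose in log2 terms by 1.27 ± 0.35 in Ni-W against UT (adjusted P = 0.00170). That call was lost without Ni-W replicate 1 or UT replicate 1 (adjusted P up to 0.346). LINC01271 did not pass the test in any comparison (1.14 ± 0.57 in Ni-W against UT, adjusted P = 0.121).

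Members differed in how near they lay to coding genes. Of the 86 members, 4 overlapped the body of a coding gene, 31 lay within 10 kb of one and 21 lay over 100 kb from any. The 31 include LINC01279 and LINC00341, whose nearest listed coding genes are CCDC80 and SYNE3. In all, 16 members overlapped another listed row, 11 of them on the opposite strand. The files list LINC01279 and CCDC80 as separate rows, 2417 bp apart on the same strand, but RefSeq now gives the first as a synonym of the second, so their levels are not read as those of a member and its neighbour. The same holds for LINC00341 and SYNE3. With these 2 left out, 12 nearest coding neighbours of members called in Ni-W against UT were tested. Of these, 0 were called in the same direction and 1 in the opposite one, ZNF32, which lies 196428 bp from LINC00619. None of 10 was called in HCl3 against UT and none of 4 in Ni-E against UT. Over all genes, 10.9% were called higher and 4.83% lower in Ni-W against UT. The shares were 11.1% and 3.74% in HCl3 against UT, and 3.75% and 2.05% in Ni-E against UT. Beside these shares the neighbours are too few for anything to be read from the counts. In Ni-W against Ni-E, 2 of 13 were called in the direction of the member, where 11.7% of all genes were called higher and 8.81% lower. These were ANKRD10, 22384 bp from LINC00346, and ZFP14, 2735 bp from LINC00665.

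None of the 3 listed hosts of other small RNAs was a member. Long noncoding RNAs with other names were read from a fixed list of 39, of which 38 were in the files. In Ni-E against UT, 2 rose and 2 fell of 30 tested, in Ni-W against UT 1 rose and 6 fell of 33, and in HCl3 against UT 4 rose and 6 fell of 33. Over all genes the shares called higher and lower were 3.75% and 2.05%, 10.9% and 4.83%, and 11.1% and 3.74%, in that order. H19, an imprinted transcript of fetal tissues, had a mean of 0.455 RPKM in UT and rose to 6.84 in Ni-E (by 3.84 ± 0.27 on the log2 scale, adjusted P = 2.09e-42), 1.94 in Ni-W (2.05 ± 0.36, adjusted P = 3.16e-07) and 9.66 in HCl3 (4.34 ± 0.24, adjusted P = 6.78e-72). The list held 7 SNHG genes, hosts of small nucleolar RNAs. Of these, 3 (SNHG1, SNHG5 and SNHG8) were called lower in both Ni-W and HCl3 against the same UT libraries, 1 (SNHG16) was called lower in Ni-W, and 3 (SNHG7, SNHG12 and SNHG15) were called in neither. DANCR, another such host, was also lower in both. Among further such hosts on the list, GAS5 was called lower against UT in HCl3 and not in Ni-W. ZFAS1 and EPB41L4A-AS1 were called against UT in neither. SNHG1 had a UT mean of 79.8 RPKM and fell to 41.1 in Ni-W (-0.99 ± 0.11, adjusted P = 1.91e-17) and 43.2 in HCl3 (-0.94 ± 0.10, adjusted P = 3.03e-18). SNHG8 fell by 1.29 ± 0.27 and 1.83 ± 0.27 (adjusted P = 2.81e-05 and 4.19e-10), and DANCR by 1.15 ± 0.14 and 1.36 ± 0.14 (adjusted P = 9.00e-14 and 3.68e-19). NEAT1, the scaffold of paraspeckles, fell by 0.76 ± 0.12 in Ni-E against UT (adjusted P = 8.11e-08).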

How the data were processed

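RNA was sequenced in 8 BEAS-2B libraries, 2 in each of 4 groups taken from the sample labels. The authors aligned reads to hg19 with STAR (2.4 in the submitters' processing notes), removed reads with several alignments, and counted reads per RefSeq gene with BioWardrobe. The deposited files hold these counts and the RPKM values that the authors derived from them. Use of the strand was not stated. The study's methods describe the 2 libraries of a group as biological replicates. Members and gene lists were chosen with earlier results of these data known. Named genes are the 10 members with the highest mean RPKM, the 5 largest called changes each way per comparison, members on the fixed lists, members called against UT in both Ni-W and HCl3, and the 2 nearest to the level on each side. The 12 members plotted by library were picked after their values were seen.

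DESeq2 1.42.0 (R 4.3.3) was fitted to the counts of all genes for each pair of groups, on the 4 libraries concerned, with its default size factors and filtering. The Wald test was two-sided, and P values were adjusted by Benjamini-Hochberg. The floor was 3 reads over a group. Intervals cover counting error only. Fits were repeated with edgeR 4.0.16 (quasi-likelihood), TMM size factors, a minimum mean count of 10, all 8 libraries, the replicate number as a block, each library left out, and other levels for membership. A correction for GC content and length, alone and with the block, and the crossed block were added after seeing the data. On simulated counts of 25411 genes for Ni-E against UT, DESeq2 recovered 90 of 100 genes changed 2-fold and 98 of 100 changed 4-fold, with 1 false call. The simulated spread between replicates was fixed for all genes and not taken from these libraries, and only well-read genes were changed. Recovery and false calls among scarce members, or at the spread of these replicates, are therefore not described by it. Library totals ranged from 26383920 to 45692298 reads, and replicates differed by more than counting noise (chi-square per degree of freedom 5.22 to 22.9). Positions in the files are hg19, while promoters, current symbols and hairpins come from RefSeq (GRCh38.p14), where 86 members matched, 79 of them by accession. Python 3.11.15 and matplotlib 3.10.9 were used for tables and figures.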

Additional observations from a re-analysis of the deposited data

Results flagged for a closer look

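Ni-W and HCl3 carry the same treatment text but differed in 4 members by the DESeq2 test of HCl3 against Ni-W. LINC00707 was 2.16 higher in HCl3 on the log2 scale (adjusted P = 7.07e-07) and LINC00619 was 0.97 higher (adjusted P = 0.0313). LINC00960 was lower in HCl3 by -0.92 (adjusted P = 0.000511), with 6.02 and 4.88 RPKM in Ni-W and 3.11 and 2.77 in HCl3, and LINC01270 by -0.81 (adjusted P = 0.0431). LINC00707 was called in every alternative. LINC00619 lost the call without any 1 of the 4 libraries and under the block, LINC01270 likewise and with all 8 libraries in 1 fit, and LINC00960 without either HCl3 replicate or without Ni-W replicate 1 (adjusted P up to 0.607, 0.630 and 0.186). The clone, the experiment and the time without nickel cannot be told apart in this difference.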

How the results depend on the processing

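Of 65 calls of a member in a comparison, 18 held under every alternative, 47 were lost under at least 1, and none reversed. The edgeR test and TMM size factors ended 0 of the 65 calls, the filter on mean counts and the fit of all 8 libraries 2 each, and the GC and length correction 7. In Ni-E against UT, 7 members were called, with edgeR 11, and 1 to 5 with a library left out. The other totals with a library left out were 6 to 9 in Ni-W against UT (17 in all), 3 to 12 in HCl3 against UT (16), 10 to 18 in Ni-W against Ni-E (21) and 1 to 2 in HCl3 against Ni-W (4, with edgeR 7). With a lone library in an arm, it was assumed to vary like the other group. The replicate number as a block gave 2 calls in Ni-E against UT, 9 in HCl3 against UT and 2 in HCl3 against Ni-W, and 12 and 18 in the other comparisons. The block with the GC and length correction gave 2 in Ni-E against UT, 11 in Ni-W against UT and 2 in HCl3 against Ni-W. The labels show only a repeat library, and deviations of libraries with the same number had an r of -0.17 in Ni-E against UT, 0.36 in Ni-W against UT and -0.21 in HCl3 against UT, so no pairing was established. The crossed block gave 9 in HCl3 against UT and 2 in HCl3 against Ni-W. The causes were not tested. Totals over all genes under these alternatives were not counted, so the drops are not read as particular to members. Depth limits members with few reads, as in UT, where the median member had 40.5 to 61.0 reads.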
